A study of Mus musculus with 18 samples.

Results

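Apoe, Apoc1, Apoc2, Clu, Lpl and Lrp1 are 6 of the 57010 genes in the table of read counts, and they were taken by name as the apolipoproteins, the lipase and the receptor that carry, unload and take up lipoproteins. RNA was measured in cells selected for CD11b, a surface protein of microglia and macrophages, from brains of wild-type male mice. Young mice (2 to 4 months), aged mice (18 to 20 months) and aged mice with an ischemic stroke (MCAo, occlusion of the middle cerebral artery) were each given vehicle or bexarotene, a drug that activates the retinoid X receptor (RXR). Each of the 6 groups had 3 libraries, and the labels call these biological replicates. The dose was 5 mg/kg into the peritoneum, starting 24 hours after surgery and repeated each day for 2 days, vehicle mice received 3% DMSO in saline, and brains were collected on day 3. The sources used here do not say what surgery, if any, was done on mice without stroke.

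Apolipoprotein E, encoded by Apoe, is the main lipid carrier that glial cells release in the brain, and microglia raise it when they take up myelin or damaged tissue. Cholesterol reaches apolipoprotein E through the exporters Abca1 and Abcg1. Apoe, Abca1 and Abcg1 are all known targets of the liver X receptors (LXR), which bind DNA as partners of RXR, so an RXR agonist can act on them. Apoc1 and Apoc2 are small apolipoproteins whose genes lie in a cluster with Apoe, Clu encodes clusterin (apolipoprotein J), Lpl encodes lipoprotein lipase, which frees fatty acids from triglycerides, and Lrp1 encodes a large endocytic receptor for apolipoprotein E.

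The promoters of Apoe and Abca1 are shown because both genes are LXR targets and their levels under bexarotene are set side by side here. The windows run from 250 bases before to 50 bases after an annotated start and come from RefSeq on build GRCm38.p6. The Apoe window is chr7:19699139-19699438 and the Abca1 window chr4:53159846-53160145, both on the minus strand and written 5′ to 3′. Capitals mark the best match to the LXR and RXR motif called DR4 (AGGTCA, 4 bases of any kind, AGGTCA; either strand), where that match has at most 3 mismatches among the 12 fixed bases.
Apoe: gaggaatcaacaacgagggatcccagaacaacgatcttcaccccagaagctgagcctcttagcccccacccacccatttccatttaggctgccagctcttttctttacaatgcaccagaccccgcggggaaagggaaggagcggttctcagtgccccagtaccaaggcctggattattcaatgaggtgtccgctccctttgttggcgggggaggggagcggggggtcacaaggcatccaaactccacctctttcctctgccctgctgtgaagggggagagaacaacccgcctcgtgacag
Abca1: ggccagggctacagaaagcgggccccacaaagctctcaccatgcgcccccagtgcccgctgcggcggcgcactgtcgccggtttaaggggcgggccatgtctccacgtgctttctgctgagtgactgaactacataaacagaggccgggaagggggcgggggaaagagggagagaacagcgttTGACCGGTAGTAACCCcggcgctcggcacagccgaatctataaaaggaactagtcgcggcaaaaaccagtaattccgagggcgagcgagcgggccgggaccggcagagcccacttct
The match in the Abca1 window has 3 mismatches and lies on the strand opposite to the one printed. Of the 32851 windows in the table, 21.9% held a match that good. The best match at each of the 3 Apoe starts and at the Apoc2 start has 4 mismatches, as do at least as good matches in 76.9% of all windows, and the Lrp1 window has none with fewer than 5. The half-site AGGTCA was in 16.3% of windows. It occurs at 2 places in the Apoc2 window and not in those of Apoe, Lrp1 or Abca1. Sites outside these windows were not searched, so the matches do not show whether a gene has or lacks an LXR site. A link between a match and the level under bexarotene was not tested.

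Library totals were 7582511 to 11852638 counts without stroke and 16206144 to 29359943 with stroke. Levels are given as CPM (counts scaled to equal library size), and floors and intervals from counts cover counting error only. Homeostatic microglial markers summed to 49058 to 70310 CPM in libraries without stroke and to 22525 to 28533 CPM with stroke. Markers of monocytes and infiltrating macrophages summed to 859 to 2470 CPM without stroke and 9356 to 21338 CPM with stroke. All 14 of 14 were called higher with stroke under either treatment. Of all genes tested, 27.2% were called higher with stroke in vehicle mice and 26.8% in bexarotene mice. Neuron markers summed to at most 6.46 CPM. Over the 18 libraries, oligodendrocyte markers summed to 182 to 310 CPM and neutrophil markers to 684 to 3790 CPM. In bulk RNA, fewer cells of a type and less RNA per cell cannot be told apart. The part of cell mixture in the values below was not tested. Some fits below use a marker level as a covariate. That level comes from the same libraries and can differ between the groups, so these fits cannot separate cell mixture from group.

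Apoe was by far the most abundant of the 6 genes. In young mice its level was 1699, 2229 and 1831 CPM with vehicle and 2355, 2574 and 2222 CPM with bexarotene. In aged mice it was 2035, 4955 and 3953 CPM with vehicle and 3155, 3393 and 2580 CPM with bexarotene. With stroke it was 5128, 4182 and 5518 CPM with vehicle and 6062, 6655 and 4709 CPM with bexarotene. The young libraries are low and the stroke libraries high, and of the aged vehicle libraries the first lies within the range of young ones, the second within that of the stroke libraries and the third between these ranges. Among 15182 genes ranked by mean CPM per kilobase of exon, Apoe was 33rd in young vehicle, 19th in aged vehicle and 12th in aged stroke vehicle. On that scale, mean Apoe in young vehicle was 898 CPM per kilobase, against 15.7 for Lrp1, 12.7 for Clu, 2.25 for Lpl and 0.146 for Apoc1.

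**Figure D1:**
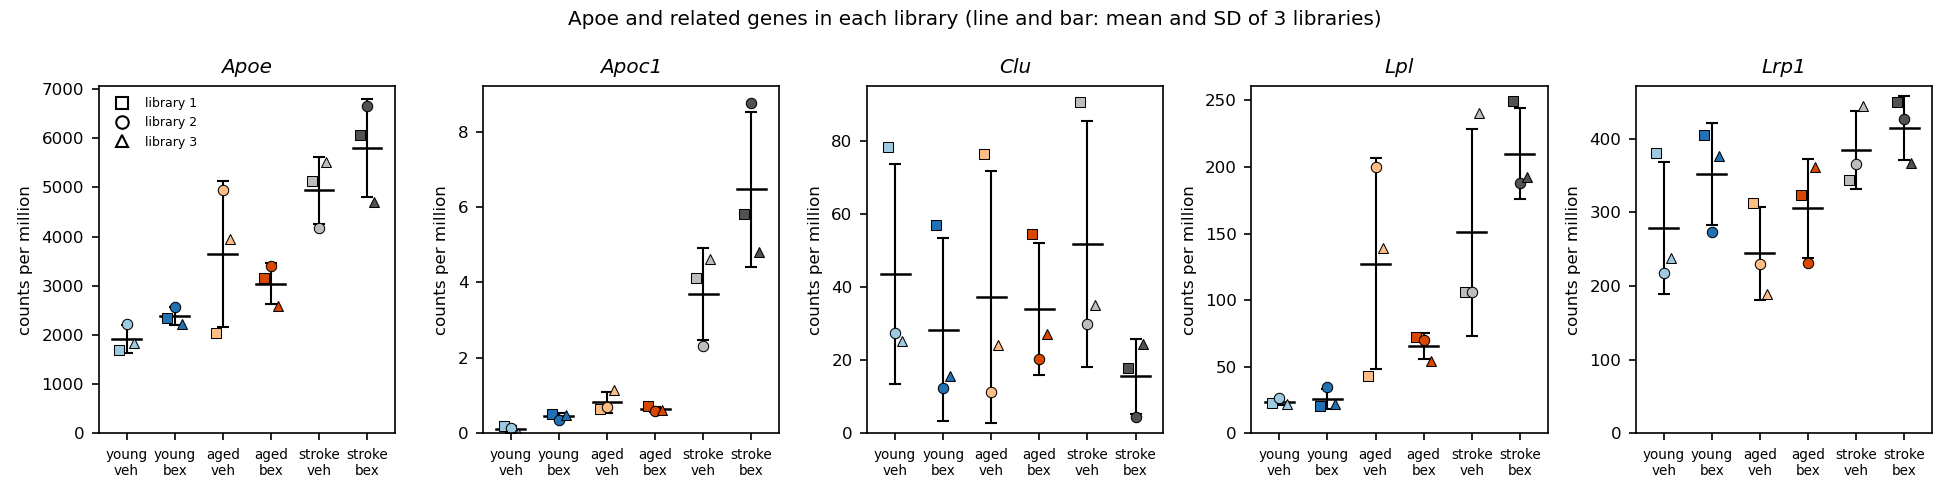
CPM (vertical axis, linear, starting at 0) of Apoe, Apoc1, Clu, Lpl and Lrp1 in each of 18 libraries, by group (veh, vehicle; bex, bexarotene; stroke, aged mice with stroke), with the mean and SD of 3 libraries. Apoc1 lies below 1.2 CPM in every library without stroke and above 2.3 CPM in every one with stroke, while Clu is highest in library 1 in 5 of 6 groups.

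In order of mean level, Apoe went from young vehicle (1919 ± 276 CPM, SD, n = 3) through young bexarotene (2384 ± 178), aged bexarotene (3043 ± 418) and aged vehicle (3648 ± 1484) to stroke vehicle (4943 ± 687) and stroke bexarotene (5809 ± 997). Of the neighbours in this order, only young bexarotene and aged bexarotene had ranges that did not overlap (as for 16.8% of all genes). Lpl had the same order of groups as Apoe.

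With age, Apoc1 and Lpl were called higher in vehicle mice, and they were the 2 called of the 5 genes tested, against 1.7% of the 15528 genes tested overall (1.26% higher). A gene was called at an adjusted p under 0.05 in edgeR's quasi-likelihood test with Benjamini-Hochberg adjustment over all genes tested, which is the source of every p below unless another tool is named. Apoc2 was not tested, since it had 3 counts in all, 1 in each of 3 libraries. The median log2 difference of the 5 genes was 0.93, beside -0.01 over all genes tested.

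Lpl was 22.6, 26.3 and 21.7 CPM in young vehicle and 43.2, 200.2 and 139 CPM in aged vehicle libraries. The groups did not overlap, as for 18.4% of all genes tested, but aged library 1 held far less than the other two. The log2 difference was 2.44 ± 0.47 (SE), with an adjusted p of 0.0167. In the authors' deposited table of aged against young vehicle mice, Lpl was the one gene of the 6 listed, with a log2 fold change of 1.63, an error of 0.866 and an adjusted p of 0.00362. Under bexarotene, Lpl was 20.7, 34.5 and 22.1 CPM in young and 72.1, 70.4 and 54.7 CPM in aged libraries. These groups did not overlap either (16.8% of all genes did not), and the log2 difference of 1.36 ± 0.47 missed the threshold (adjusted p = 0.255). Averaged over both treatments, Lpl rose by 1.90 ± 0.33 on the log2 scale (adjusted p = 0.00429), and this call held under every alternative run.

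Apoc1 rested on few reads, and it passed the low-count filter (filterByExpr) only through the stroke libraries. Young vehicle libraries held 2, 1 and 0 counts, young bexarotene 5, 3 and 5, aged vehicle 7, 7 and 12, and aged bexarotene 7, 7 and 6. None of these libraries held more than 12 counts, where a count of 3 is the floor (0.396 CPM in the shallowest library). No aged vehicle library overlapped a young vehicle one (as for 18.4% of all genes). Its log2 difference in vehicle mice was 2.89 ± 0.66 (adjusted p = 0.0277). From summed counts the ratio of aged to young was 8.03 with vehicle (exact 95% interval 2.46 to 41.4) and 1.40 with bexarotene (0.665 to 3.07).

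Apoe in aged vehicle mice was 0.93 ± 0.23 above young on the log2 scale, with an adjusted p of 0.0558, and the groups overlapped through aged library 1. Without that library the log2 difference was 1.21 and the adjusted p 0.000362, and without aged library 2 they were 0.63 and 0.274. Aged library 1 also had the highest sum of choroid plexus markers of its group (2769 CPM, against 212 and 727 CPM), and with these markers as a covariate the difference was 0.79 (edgeR, adjusted p = 0.0365). By DESeq2, Apoe was called (adjusted p = 0.00188) and Apoc1 was not (0.0554), and limma voom called neither (0.0996 and 0.328). Averaged over both treatments, Apoe rose by 0.64 ± 0.16 (adjusted p = 0.0311), and this call was lost without any one of 8 of the 12 libraries compared (highest adjusted p 0.091). With the averaged contrast, 3 of 5 genes (Apoe, Apoc1, Lpl) were called, all higher, against 5.75% of all genes (3.64% higher). In the same contrast 7 of 13 markers of border-associated macrophages, among them Mrc1, Pf4 and Lyve1, were called lower. The 13 summed to 1241 to 1961 CPM in young and 861 to 1110 CPM in aged libraries without stroke. Monocyte and infiltrating macrophage markers summed to 860 to 1704 CPM in young and 1476 to 2470 CPM in aged vehicle libraries. With bexarotene they summed to 859 to 1584 and 1984 to 2048 CPM. Homeostatic microglial markers summed to 58896 to 70310 CPM in young and 53074 to 56758 CPM in aged vehicle libraries. With bexarotene they were 54132 to 63978 and 49058 to 56536 CPM. The part of these marker groups in the age differences was not tested. Clu (-0.23 ± 0.84) and Lrp1 (-0.19 ± 0.23) were not called with age in vehicle mice, and none of the 5 was called in bexarotene mice (0.96% of all genes called; 1 of the 5, Lpl, at an unadjusted p under 0.05, against 11.4% of all genes; none by DESeq2 or limma voom). The age calls of Lpl and Apoc1 in vehicle mice were lost without any 1 of 5 libraries (all but aged library 1), with adjusted p up to 0.0984 for Lpl and 0.13 for Apoc1.

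Of 8 other lipoprotein receptors tested, 2 were called with age in vehicle mice, where 1.7% of all genes were. Olr1, a receptor for oxidized LDL, rose by 2.12 ± 0.40 (adjusted p = 0.00573), and the fatty acid and lipoprotein receptor Cd36 fell by 0.91 ± 0.16 (adjusted p = 0.00407). None of 16 tested members of the LDL receptor family and its partners, 13 lipases and remodelling genes or 6 other apolipoproteins was called there, while the authors' deposited table of aged against young vehicle mice lists Dab2, an endocytic adaptor, as lower (log2 fold change -0.40, adjusted p = 0.00136). Averaged over treatments, where 5.75% of all genes were called, 3 of the 16 were called lower. These were Dab2 (-0.57 ± 0.10), Lrp6 (-0.42 ± 0.10) and Sort1 (-0.32 ± 0.09). Of the apolipoproteins, Apob, at under 1.1 CPM in every library without stroke, was called lower in this contrast.

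Bexarotene moved none of the 5 tested genes past the threshold in young, aged or stroke mice, nor in the average of all 3 settings. This held by edgeR with the low-count filter, by DESeq2 and by limma voom. All genes tested were called at 0.509% in young, 0.258% in aged, 0.058% in stroke mice and 2.09% in the average. At an unadjusted p under 0.05 there was 1 of 5 in young mice, 0 in aged mice, 1 in stroke mice and 1 in the average, against 8.37%, 6.52%, 6.36% and 12.7% of all genes, and this 1 was Apoc1 each time. For Apoe, the log2 difference was 0.31 ± 0.23 in young mice (95% interval -0.18 to 0.80), -0.26 ± 0.23 in aged mice (-0.75 to 0.23) and 0.23 ± 0.23 in stroke mice (-0.26 to 0.72). The average of the 3 was 0.09 ± 0.13 (-0.19 to 0.38).

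The exporters Abca1 and Abcg1 gave the scale of the response in the same libraries. Abca1 was 465 ± 89.9 CPM (SD, n = 3) in young vehicle and 1005 ± 129 in young bexarotene libraries, a log2 difference of 1.11 ± 0.14 (adjusted p = 0.000472). Abcg1 went from 103 ± 1.66 to 486 ± 69.2 CPM, or 2.23 ± 0.14 (adjusted p = 3.21e-08). In stroke mice Abcg1 was called higher by 1.28 ± 0.13, and Abca1 was 0.58 ± 0.14 with an adjusted p of 0.227. The authors' deposited table of bexarotene against vehicle in stroke mice does list Abca1 as higher (log2 fold change 0.52, adjusted p = 0.00329). On average over the settings, the intervals of Abca1 (0.71 to 1.05) and Abcg1 (1.75 to 2.08) lay above that of Apoe, although the difference between genes was not tested.

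**Figure D2:**
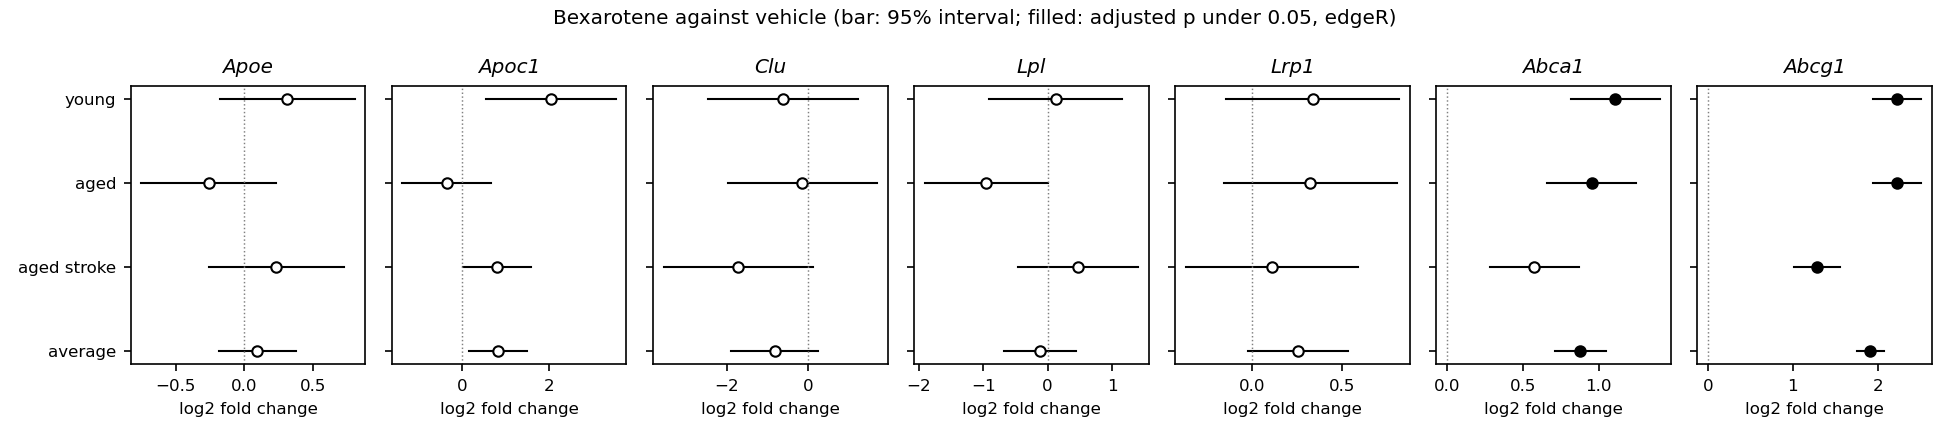
Log2 fold change of bexarotene against vehicle (horizontal axis, its own scale in each panel) with the 95% interval, for 5 lipoprotein genes and the exporters Abca1 and Abcg1, in young, aged and aged stroke mice and on average; filled points passed the edgeR threshold. No point is filled for Apoe, Apoc1, Clu, Lpl or Lrp1, and Abcg1 is filled in all 4 rows.

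Apoc1 had counts of 5, 3 and 5 in young bexarotene against 2, 1 and 0 in young vehicle, a ratio of 4.44 (exact 95% interval 1.22 to 24.3), and in stroke mice 168, 133 and 104 against 84, 38 and 88. Neither pair of groups overlapped in CPM (13.1% and 11.3% of all genes did not), and the log2 differences were 2.04 ± 0.71 (adjusted p = 0.353) and 0.80 ± 0.38 (adjusted p = 0.768). In aged mice the Apoc1 difference was -0.36 ± 0.49. The bexarotene effect on Apoc1 in aged minus that in young mice was -2.40 ± 0.87 at an unadjusted p of 0.0127 (edgeR), which did not survive adjustment.

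The Lpl difference under bexarotene was -0.95 ± 0.44 in aged mice (adjusted p = 0.767), where aged vehicle libraries spread from 43.2 to 200.2 CPM and aged bexarotene ones from 54.7 to 72.1 CPM, and 0.48 ± 0.43 in stroke mice. The bexarotene effect on Lpl differed between stroke and no stroke by 1.43 ± 0.62 (edgeR, unadjusted p = 0.0373), and no gene of the 15528 was called in this test or in that of aged against young mice by edgeR. At an unadjusted p under 0.05 there were 638 and 456 genes (4.11% and 2.94%), and DESeq2 called 1 and 3, none of them among the 6, while limma voom called 0.

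Lrp1 was 381, 218 and 238 CPM in young vehicle and 404, 274 and 377 CPM in young bexarotene libraries. In aged mice it was 313, 229.8 and 189 CPM with vehicle and 323, 231 and 362 CPM with bexarotene. The groups overlapped in both settings. Its average difference under bexarotene was 0.26 ± 0.13 (95% interval -0.02 to 0.53, adjusted p = 0.449). Of the related genes, Mylip, which encodes a ubiquitin ligase for lipoprotein receptors and is an LXR target, was called higher on average by 0.65 ± 0.09 (adjusted p = 0.000641). Dab2, an adaptor for endocytosis of LDL receptor family members, was called lower by -0.41 ± 0.08, and the LDL receptor family member Lrp12 by -0.37 ± 0.08. Angptl4, an inhibitor of lipoprotein lipase, was higher by 1.90 ± 0.36 (adjusted p = 0.00746), and in stroke mice its mean went from 6.96 ± 3.42 to 25.2 ± 3.01 CPM.

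Clu was high in the libraries that were high in choroid plexus markers. Clu was 78.3, 27.4 and 25.3 CPM in young vehicle, 57.2, 12.3 and 15.7 CPM in young bexarotene and 76.5, 11.4 and 24.2 CPM in aged vehicle. It was 54.7, 20.3 and 27.3 CPM in aged bexarotene, 90.8, 29.9 and 35.2 CPM in stroke vehicle, and 17.9, 4.35 and 24.6 CPM in stroke bexarotene. Library 1 was highest in 5 of the 6 groups, and of the groups compared only the stroke groups, with and without bexarotene, did not overlap.

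The 12 markers of choroid plexus and ependyma (Ttr, Kl, Enpp2 and others) summed to 146 to 3316 CPM. Each of the 12 had a count in some library, and single libraries held counts for 9 to 11 of them. The library highest in Clu was also highest in these markers in 6 of 6 groups, and the lowest in Clu was lowest in them in 5 of 6. Clu spanned 20.9-fold over the 18 libraries and the marker sum 22.7-fold. Clu was 2.50 to 6.29 CPM per 100 CPM of markers (median 2.98). No contrast called Clu in the main edgeR fit. Without the low-count filter, edgeR called Clu in some contrasts, with the lowest adjusted p (1.72e-23) for bexarotene in stroke mice. Standard errors were much smaller in that fit than with the filter. In stroke mice Clu with bexarotene did not overlap vehicle (as for 11.3% of all genes) and was -1.72 ± 0.85 (adjusted p = 0.811). The marker sum was 146 to 740 CPM with bexarotene and 958 to 3316 CPM with vehicle. With the mean log2 level of these markers in the fit, the Clu difference was -0.33 (edgeR, adjusted p = 0.638). The marker sums of these groups did not overlap either, so this fit cannot separate the markers from the treatment. The 3 genes most like Clu over the 18 libraries, by the root mean square difference of centred log2 CPM among 9297 genes with at least 10 CPM, were Kl (0.33), Enpp2 (0.34) and Igfbp2 (0.38).

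**Figure D3:**
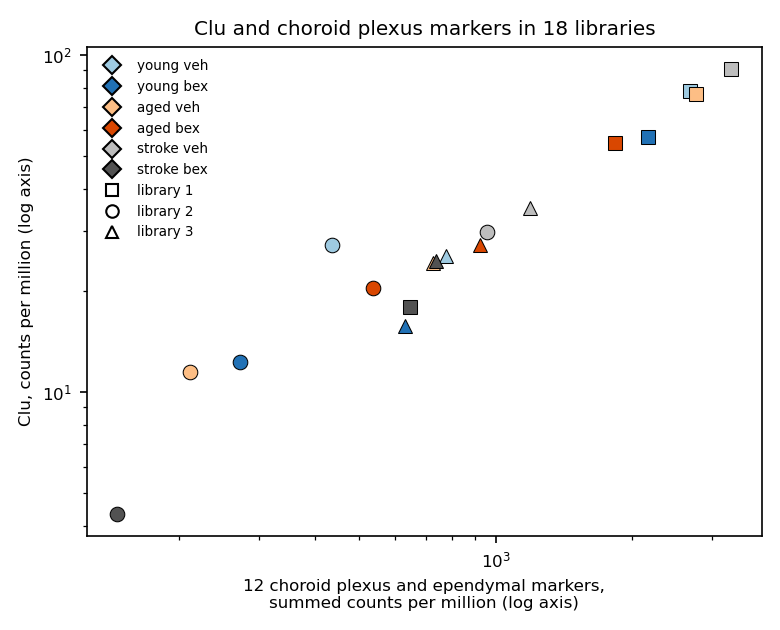
Clu (vertical log axis, CPM) against the summed CPM of 12 choroid plexus and ependymal markers (horizontal log axis) in 18 libraries, coloured by group and shaped by library number. The points run from 4.35 CPM of Clu at 146 CPM of markers to 90.8 CPM at 3316 CPM, and groups of all ages and treatments lie along the same band.

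With stroke, Apoc1 was called in both treatments, Apoe and Lpl in bexarotene mice, and Lrp1 in vehicle mice. That made 2 of 5 genes called in vehicle mice and 3 of 5 in bexarotene mice, all higher. In these contrasts 48.3% and 48% of all genes tested were called (27.2% and 26.8% higher), so the counts are near the background. Averaged over treatments 4 of 5 were called (all but Clu), against 61.6% of all genes (33.1% higher). Each of these counts includes Apoc1, which passed the low-count filter only through the stroke libraries, where it was high. Border-associated macrophage markers summed to 1448 to 1539 CPM in stroke vehicle and 1090 to 1401 CPM in stroke bexarotene libraries, and their part in the stroke differences was not tested.

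**Figure D4:**
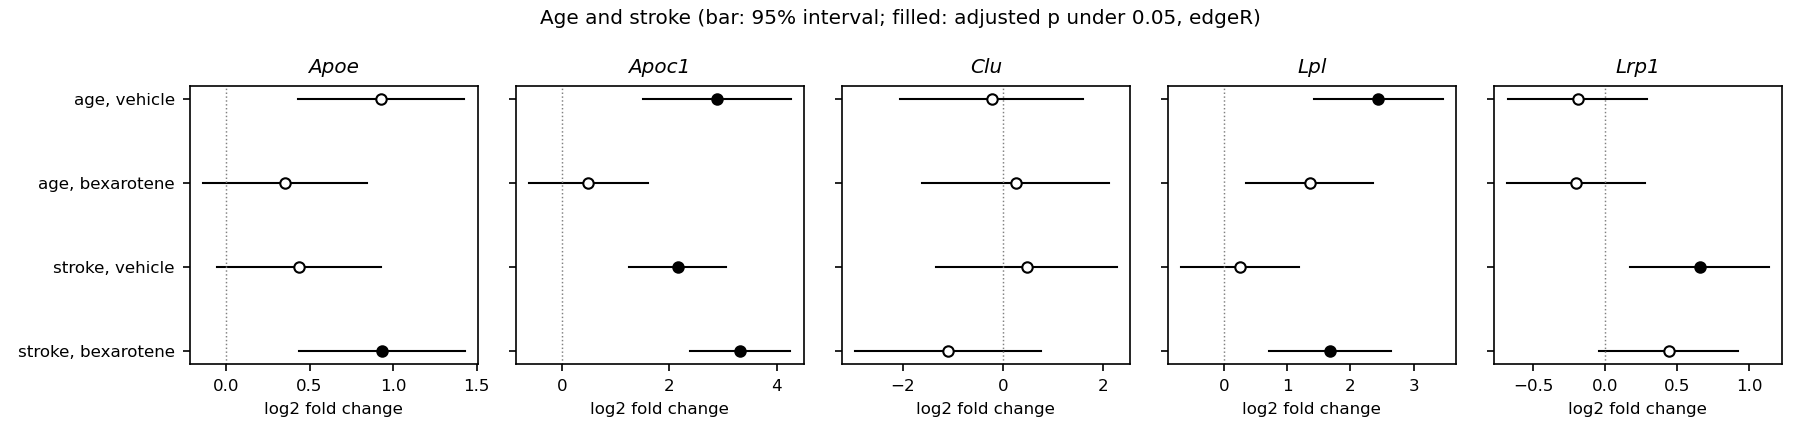
Log2 fold change (horizontal axis, its own scale in each panel) with the 95% interval for age (aged against young) and stroke (stroke against no stroke in aged mice) under each treatment; filled points passed the edgeR threshold. Apoc1 is filled for age in vehicle mice and for stroke under both treatments, while Clu is filled in no row.

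Apoc1 counts were 84, 38 and 88 in stroke vehicle and 168, 133 and 104 in stroke bexarotene libraries, which were also sequenced more deeply. In CPM, its mean went from 0.823 ± 0.285 in aged vehicle to 3.69 ± 1.21 with stroke, and from 0.641 ± 0.0691 in aged bexarotene to 6.47 ± 2.05 with stroke. No stroke library overlapped one without stroke, as for 56.1% and 56.3% of all genes. The log2 differences were 2.16 ± 0.43 (adjusted p = 0.000431) and 3.32 ± 0.45 (adjusted p = 7.54e-06). Because Apoc1 passed the low-count filter only through the stroke libraries, where it was high, these calls are not independent of that filter. The ratios of summed counts scaled for depth were 4.59 (exact 95% interval 3.04 to 7.18) and 9.68 (6.18 to 16.0). The genes most like Apoc1 by the same measure were Cd93 (0.51), Il2rg (0.55) and H2-Q7 (0.56).

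Apoe with stroke was 0.93 ± 0.23 higher on the log2 scale in bexarotene mice (adjusted p = 0.00348), where no libraries overlapped (as for 56.3% of all genes). In vehicle mice it was 0.44 ± 0.23 (adjusted p = 0.132), and the aged vehicle library of 4955 CPM lay within the stroke range of 4182 to 5518 CPM. Whether the stroke effect on Apoe differed between treatments was tested directly and was 0.49 ± 0.33 (edgeR, unadjusted p = 0.151). In the fit with the choroid plexus markers as a covariate, the vehicle difference was 0.67 (edgeR, adjusted p = 0.0083), and without aged vehicle library 2 it was 0.70 (adjusted p = 0.021). The genes most like Apoe were the ribosomal protein gene Rpl13 (0.23) and its near-identical copies Rpl13-ps6 (0.21) and Gm15427 (0.22), whose reads can be shared.

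Lpl was 106, 106 and 241 CPM in stroke vehicle and 249, 188 and 192 CPM in stroke bexarotene libraries. The stroke vehicle libraries overlapped those of aged vehicle mice (0.25 ± 0.43, adjusted p = 0.671). The stroke bexarotene libraries all lay above aged bexarotene ones (1.68 ± 0.45, adjusted p = 0.00697), and 56.3% of all genes did not overlap there. Lpl was most like Itgax (0.36) and Clec7a (0.41), which encode a surface integrin and a pattern receptor that mark activated microglia, and Masp1 (0.47). Itgax had 7.33 CPM in young vehicle, 28.0 in aged vehicle and 35.2 in stroke vehicle on average.

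Lrp1 was 344, 365 and 445 CPM in stroke vehicle and 450.03, 427 and 366 CPM in stroke bexarotene libraries. All lay above the aged libraries without stroke of the same treatment. The groups did not overlap for 56.1% of all genes tested in vehicle mice and 56.3% in bexarotene mice. The log2 difference was 0.66 ± 0.23 in vehicle mice (adjusted p = 0.0255) and 0.44 ± 0.23 in bexarotene mice (adjusted p = 0.123), and the difference between these was -0.22 ± 0.32 (edgeR, unadjusted p = 0.51). The call in vehicle mice was lost without aged library 2 (adjusted p = 0.084), aged library 3 (0.132) or stroke library 3 (0.0998), and with astrocyte markers as a covariate (0.0559). Astrocyte markers summed to 341 to 491 CPM in aged vehicle and 125 to 168 CPM in stroke vehicle libraries. Most of this sum was Slc1a3, at 310 to 468 CPM in aged vehicle and 92.3 to 114 CPM in stroke vehicle libraries. The other 11 markers did not fall, with sums of 20.6 to 48.0 CPM and 29.2 to 53.3 CPM, and at most 53.3 CPM in any library. The covariate was the mean log2 level of the tested markers and not this sum. Lrp1 was most like Mppe1 (0.14), Ewsr1 (0.16) and Skiv2l (0.17).

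The receptors around Lrp1 moved in both directions with stroke. Of 16 tested members of the LDL receptor family and partners (21 listed), 6 were called higher and 5 lower in vehicle mice, and the same 11 were called with the same sign in bexarotene mice. Of all genes, 48.3% were called in vehicle and 48% in bexarotene mice. Sorl1, an intracellular sorting receptor, rose by 1.52 ± 0.28 in vehicle mice. Dab2 rose by 1.56 ± 0.15 and 1.66 ± 0.15. Mylip fell by 1.16 ± 0.16 in vehicle mice and by 0.81 ± 0.16 in bexarotene mice, and the sorting receptor Sort1 fell by 0.76 ± 0.12 in vehicle mice. Lrp8, an apolipoprotein E receptor named here after its values were seen, went from 1.02 ± 0.943 to 9.48 ± 4.45 CPM with vehicle and was among the 6 higher. The median of the 16 was 0.12 in vehicle mice, beside 0.02 over all genes.

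Of 8 other lipoprotein receptors, 6 were called higher and 1 lower with stroke, the same 7 genes under both treatments, against 48.3% and 48% of all genes called (27.2% and 26.8% higher). Msr1, the macrophage scavenger receptor, went from 38.9 ± 8.65 to 456 ± 45.8 CPM with vehicle (3.55 ± 0.19), and Scarb1, a receptor for high-density lipoprotein, rose by 1.28 ± 0.13. Cd36 rose by 1.09 ± 0.16. Trem2, a microglial receptor that binds lipids and apolipoprotein E, fell from 1212 ± 87.7 to 716 ± 39.7 CPM (-0.76 ± 0.11).

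Among lipases and remodelling genes, 13 of 16 were tested, with 5 called higher and 3 lower in vehicle mice and 5 higher and 1 lower in bexarotene mice. Against 48.3% and 48% of all genes called, the count in bexarotene mice is near the background. Angptl4 rose by 4.57 ± 0.66 in vehicle mice from under 1 CPM, the phospholipid transfer protein gene Pltp by 1.32 ± 0.35 and the lysosomal acid lipase gene Lipa by 0.47 ± 0.10. Of 18 other apolipoproteins 6 were tested, and Apob, Apobr and Apol9b were called higher under both treatments. Apob had 1, 0 and 0 counts in aged vehicle and 19, 77 and 115 in stroke vehicle libraries, and Apol9b had 0 in each aged vehicle library and 57, 14 and 28 with stroke. At such counts the aged vehicle libraries did not help these genes pass the low-count filter, so their being tested rested on other groups.

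**Figure D5:**
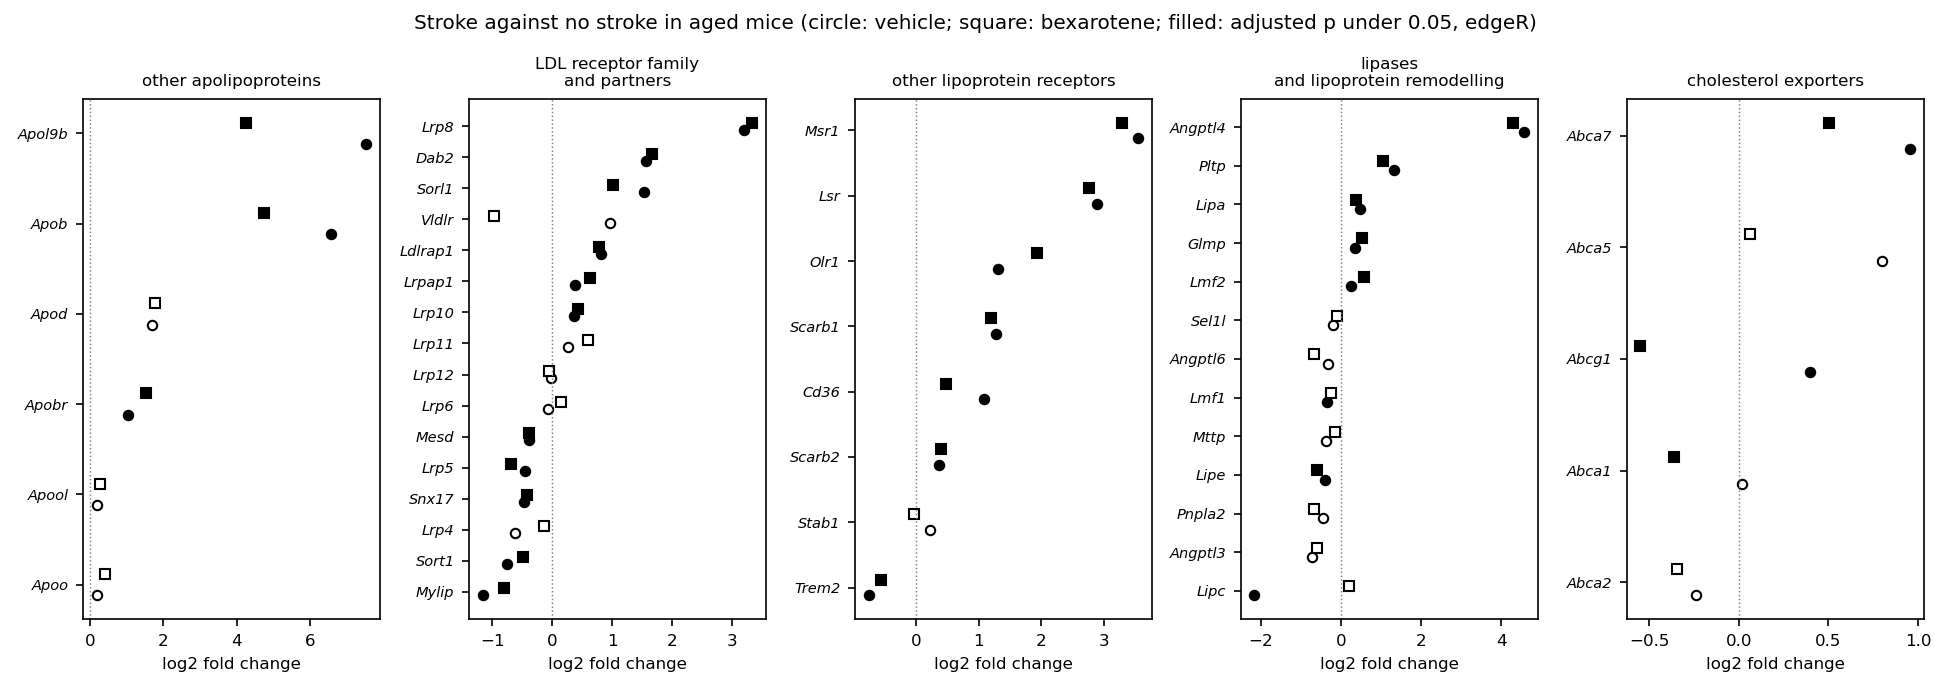
Log2 fold change of stroke against no stroke in aged mice (horizontal axis, its own scale in each panel) for the tested genes of 5 lists related to lipoproteins, with vehicle (circles) and bexarotene (squares); filled points passed the edgeR threshold. In the panel of other lipoprotein receptors 6 genes lie to the right of 0 and filled, and Trem2 to the left.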

How the data were processed

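The authors deposited a table of raw whole-number counts per gene for 18 libraries, without normalization, under Ensembl identifiers. Per the submitters' processing notes, Trimmomatic 0.40, STAR 2.7.10a, GATK, R 4.4.2 and build GRCm39 were used. Which tool counted reads, with which annotation and strand setting, was not stated there, and overlapping genes could not be separated. Of the 813 exon bases of Apoc2, 79.5% also lie in exons of Gm44805 on the same strand. The labels name SMART-Seq v4 PLUS libraries from Percoll-cleaned cells depleted of neutrophils with Ly6G beads. A further 4 deposited tables hold the authors' comparisons, with a baseMean score, a log2 fold change with its error and a p-value for genes at an adjusted p below 0.05.

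Symbols, exon lengths and the exon overlap of Apoc2 with Gm44805 came from GENCODE M21 (GRCm38), and 52033 of 57010 genes had a symbol. The promoter coordinates came from RefSeq. Counts were fitted with edgeR 4.0.16 (R 4.3.3): filterByExpr left 15528 genes, TMM factors were 0.937 to 1.05, and 1 robust quasi-likelihood model covered 18 libraries (12 residual degrees of freedom). Standard errors come from the F statistic. CPM use the total over tested genes times the TMM factor. Replicates of a group differed beyond sampling noise (chi-square per degree of freedom 6.19 to 41.8). Alternatives were DESeq2 1.42.0, limma voom (limma 3.58.1), other scaling and filters, marker covariates, a replicate block and leaving out libraries. The scripts were tested on simulated data. The 6 genes, the lists and the tests were chosen with earlier results of these data known. Named genes are the 6, up to 4 called genes of lowest p per list and comparison, and the 3 genes most like each of the 6. A listed gene of the receptor family is not reported here and was left out of that list's counts. Same-numbered libraries deviated together between young vehicle and young bexarotene (r = 0.18, 0.35 and 0.24, all above 0.1), so the number may pair these, as it may young vehicle and aged bexarotene (r = 0.33, 0.42 and 0.13), which were not compared. The block changed no call of the 5 genes between the young groups. A floor of 3 counts was 0.396 CPM in the shallowest and 0.102 CPM in the deepest library.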

Additional observations from a re-analysis of the deposited data

How the results depend on the processing

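Of 1069 fold changes of the 5 genes recomputed under alternatives, 969 kept their direction and side of the threshold, 32 lost the threshold, 23 gained it and 45 changed sign. None of the 45 was called. The number of the 5 genes called moved past 1.5 times in 24 of 215 recomputed counts. With age in vehicle mice it was 2, and 1 by limma voom, 0 with only the groups compared and 0 to 3 without single libraries. With age in bexarotene mice (0) it was 1 with only the groups compared. Averaged over treatments (3) it was 1 with only the groups compared and 1 to 3 without single libraries. With stroke in vehicle mice (2) it was 1 with the astrocyte covariate and 1 to 2 without single libraries. Without the low-count filter it was 1 for age in bexarotene mice, 1, 1 and 2 for bexarotene in young, aged and stroke mice, 1 for their average, 4 and 5 for stroke in vehicle and bexarotene mice, and 1 and 2 for the differences of the bexarotene effect (aged minus young, stroke minus no stroke). The cause was not tested. Genes called over all genes tested moved more: with age in vehicle mice 264 by edgeR, 516 by DESeq2, 154 by limma voom and 107 without the libraries numbered 1, and with bexarotene in stroke mice 9, 53, 28 and 3.

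Sign changes of values that were not called were as follows. Clu with age, averaged over treatments, was -0.0063 by limma voom and -0.048 with the astrocyte covariate, against 0.014. Clu under bexarotene in aged mice (-0.14) was 0.12 by limma voom, 0.10 with the replicate block, 0.48 with the astrocyte covariate and 0.41 without the libraries numbered 1. With the choroid plexus covariate, Apoe under bexarotene in stroke mice was -0.077, Clu with stroke in vehicle mice -0.079 and the stroke difference of the bexarotene effect on Lrp1 0.076. Without the libraries numbered 1, Lrp1 under bexarotene in stroke mice was -0.0090, Apoe under bexarotene on average -0.031, Lpl with stroke in vehicle mice -0.0010 and Clu with stroke on average 0.066. Without single libraries, the ranges were as follows. With age in vehicle mice, Clu was -1.30 to 0.51 and Lrp1 -0.41 to 0.10. Clu was -0.26 to 1.27 with age in bexarotene mice and -0.52 to 0.52 averaged. Under bexarotene, Clu was -1.64 to 0.10 and Lpl -0.14 to 0.26 in young mice, Apoe -0.55 to 0.024 and Clu -0.66 to 0.93 in aged mice, and Lpl -0.25 to 0.053 on average. With stroke in vehicle mice, Clu was -0.22 to 1.51 and Lpl -0.26 to 0.70, and Clu was -0.66 to 0.20 averaged. For the bexarotene effect in aged minus young mice, Clu was -0.24 to 1.56 and Lrp1 -0.29 to 0.21.

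The replicate block gave 2 of 5 genes called with age and 2 with stroke in vehicle mice, 3 with stroke in bexarotene mice and 0 with bexarotene in each setting, the same as without the block. In the other comparisons the labels do not say whether the number pairs libraries, and the correlations of deviations were mixed. For libraries 1, 2 and 3 they were 0.44, 0.25 and 0.0028 between young and aged vehicle. Between aged vehicle and aged bexarotene they were 0.24, 0.31 and -0.10. Between young and aged bexarotene they were -0.0030, 0.48 and 0.11. Over all 45 pairs of same-numbered libraries, the young groups included, the correlation was -0.20 to 0.48, and 21 were over 0.1. Depth limits Apoc1, at 12 counts or fewer without stroke, and Apoc2, at 1 count or fewer.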

Other observations

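Genes beside the Apoe cluster were read in the same fits. Of 12 neighbours, 8 were tested, and none was called with age or bexarotene. With stroke, 3 were called higher and 1 lower under each treatment, which is near the 48.3% and 48% of all genes called. Bcl3, a regulator of NF-kB, rose by 3.14 ± 0.39 in vehicle mice and by 2.65 ± 0.37 in bexarotene mice (edgeR, adjusted p = 6.58e-06 and 2.05e-05). Nectin2, which encodes a cell adhesion protein, rose by 0.86 ± 0.16 in bexarotene mice (adjusted p = 0.000287), and Ppp1r37 fell by 0.45 ± 0.15 and 0.41 ± 0.15. The median of the 8 was 0.31 in vehicle mice, beside 0.02 over all genes tested.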
